A study of Mus musculus with 41 samples.

Results

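The S100 family genes described here are 8 genes of small calcium-binding proteins, S100a1, S100a4, S100a6, S100a8, S100a9, S100a10, S100a11 and S100a13, chosen by gene symbol. All 8 are among the 55453 genes that each table lists. They were followed in myeloid cells of orthotopic rectal tumours, which were grown from MC38-luc, a mouse colon adenocarcinoma line with a luciferase gene, in female C57BL6 mice whose age is not given in the sources used here. Irradiated tumours (SCRT in the labels) received 5 Gy on each of 5 days, from day 9 to day 13 after implantation, untreated tumours (UT) received none, and both were taken on day 14. Cells positive for CD45 and CD11b were sorted into tumour-associated macrophages (TAM; Ly6C-, Ly6G-, F4/80+), inflammatory monocytes (Ly6C+, Ly6G-) and granulocytes (Ly6C+, Ly6G+), and the RNA of each was sequenced in bulk. There were 10 irradiated and 5 untreated TAM libraries, 9 irradiated and 5 untreated inflammatory monocyte libraries, and 7 irradiated and 5 untreated granulocyte libraries, from 15 numbered tumours in all. The authors' deposited tables hold one comparison per sorted subset, so values of single libraries, their depth and levels per group were not analysed here, and no SD can be given. For the same reason the sorted identities could not be checked against marker levels.

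S100 proteins carry a pair of EF-hand motifs that bind calcium, and most work as dimers. S100A8 and S100A9 form calprotectin, which is abundant in the cytosol of neutrophils and of classical monocytes and is lost as monocytes become macrophages. Released calprotectin binds zinc and manganese and acts as a danger signal on Toll-like receptor 4 and on RAGE, the receptor encoded by Ager. Other members act mainly inside the cell, on annexins, the cytoskeleton and membrane traffic.

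S100a8 and S100a9, the pair with the largest Wald statistics among the 8 genes, lie next to each other on chromosome 3 and are read from opposite strands. The 250 bases before each annotated start are shown, 5′ to 3′, from RefSeq's table for GRCm38.p6, a build older than the mm39 of the submitters' processing notes. Of the 8 genes, 7 had an entry in that table, and S100a10 is named only. The S100a8 window is chr3:90668821-90669070 on the plus strand, and the S100a9 window is chr3:90695722-90695971 on the minus strand. Capitals mark matches, on either strand, to letters searched for C/EBP factors (TTGCNNAA), AP-1 (TGANTCA), ETS factors (GGAAGT), STAT factors (TTCNNNGAA), hypoxia-inducible factors (ACGTG) and the TATA box (TATAAA).
S100a8: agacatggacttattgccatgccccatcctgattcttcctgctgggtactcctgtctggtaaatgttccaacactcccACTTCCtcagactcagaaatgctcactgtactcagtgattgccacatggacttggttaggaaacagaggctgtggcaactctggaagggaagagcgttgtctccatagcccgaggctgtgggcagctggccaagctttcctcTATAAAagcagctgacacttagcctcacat
S100a9: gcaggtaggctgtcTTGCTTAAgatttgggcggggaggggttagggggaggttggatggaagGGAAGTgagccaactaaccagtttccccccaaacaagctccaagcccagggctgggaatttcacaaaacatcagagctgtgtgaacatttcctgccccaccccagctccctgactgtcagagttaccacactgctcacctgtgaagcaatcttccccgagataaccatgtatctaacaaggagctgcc
Both windows hold the ETS letters, which occur in 19.7% of 32851 windows of the same length. S100a8 has a TATA match starting 30 bases before its start, and 12.4% of all windows have one. S100a9 has none before its annotated start, but the same letters begin at the first base after it. S100a9 also has a match to the C/EBP letters 236 bases before the start (9.56% of all windows). No AP-1, STAT or hypoxia match was found in either window (6.75%, 7.02% and 16.6% of all windows). These matches describe the letters only.

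Levels of the 8 genes differed widely. The mean normalised count over all libraries, a single value that the authors' deposited tables repeat for each subset, was divided here by the length of the longest coding transcript. Per kilobase, S100a9 had 78957 normalised counts and S100a8 had 74348, ranks 11 and 13 of 21737 genes with a length. S100a11, which encodes a partner of annexin A1, had 18271 per kilobase, S100a6, which encodes calcyclin, 14494, and S100a10, which encodes the partner of annexin A2, 9006. S100a13, which encodes a protein that helps export cytokines lacking a signal peptide, had 1624, S100a1 had 1197 and S100a4, which encodes a binder of non-muscle myosin, 792 per kilobase. These are means over 3 cell types and both treatments, so they give no order within one subset, and their spread over libraries is not known.

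In each subset, irradiated were compared with untreated libraries by the authors' Wald test in DESeq2. The Wald statistic is the estimated effect divided by its standard error, positive where irradiated libraries were higher, and a gene is called here at an adjusted p under 0.05. The log2 fold change in the same row is a separate estimate, since its sign is unlike that of the Wald statistic in some rows, and how it was made is not given in the sources used here. Of the 8 genes, 4 were called in at least 1 subset and 4 in none, and each of the 6 calls carried a positive Wald statistic. In TAM, 3 of 8 were called, beside 26.4% of all genes tested (13.9% with a positive and 12.5% with a negative statistic). In inflammatory monocytes it was 2 of 8, beside 5.9% of all genes (4.13% positive and 1.77% negative), and in granulocytes 1 of 8, beside 17.2% (7.32% positive and 9.9% negative). With 8 genes, these shares are a description. No gene was called in all 3 subsets.

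**Figure D1:**
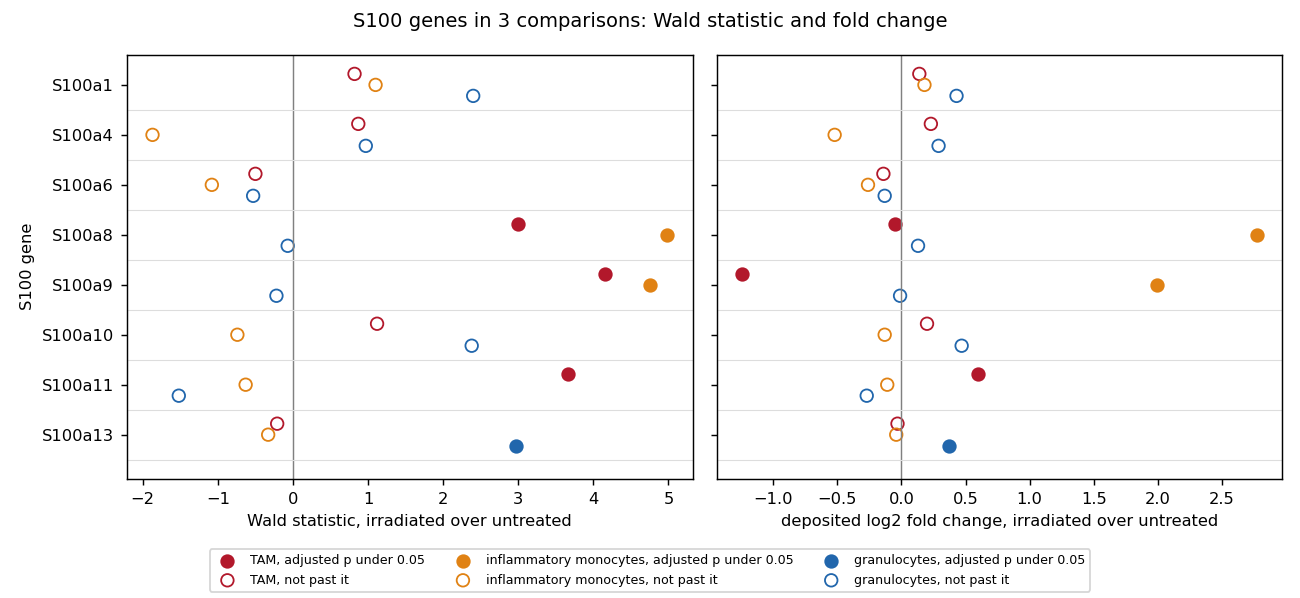
Wald statistic (left) and deposited log2 fold change (right) of irradiated over untreated libraries for 8 S100 genes in 3 sorted subsets, with filled points for an adjusted p under 0.05. S100a8 and S100a9 stand at 4.98 and 4.75 on the Wald axis in inflammatory monocytes, and in TAM their filled points lie right of 0 on the left and left of 0 on the right.

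Calprotectin genes rose in inflammatory monocytes of irradiated tumours. S100a8 had a log2 fold change of 2.77 and a Wald statistic of 4.98 in the authors' deposited table (adjusted p = 0.000117, DESeq2's Wald test), the largest statistic of any of the 8 genes in any subset. S100a9 had a log2 fold change of 1.99 and a Wald statistic of 4.75 there (adjusted p = 0.000291). By p-value they ranked 80 and 102 of 14506 genes tested. The other 6 genes were not called, with Wald statistics between -1.87 for S100a4 and 1.10 for S100a1. Both calls were lost when the Wald statistics were divided by their robust SD of 1.56 over genes whose mean count reached 50 (adjusted p = 0.263 for S100a8 and 0.338 for S100a9). In bulk RNA of sorted cells, a larger number of cells of one type and more RNA per cell cannot be told apart.

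Markers of neutrophils moved with them. Of 18 neutrophil markers, a list without S100 genes, 8 rose and none fell in inflammatory monocytes (DESeq2's Wald test), and all 18 had a positive statistic, with a median of 2.77 beside 0.11 over all genes tested. Wfdc21 had a log2 fold change of 2.93, Retnlg of 2.57, Cxcr2, a chemokine receptor of neutrophils, of 2.38 and Lcn2, which encodes an iron-siderophore binder, of 1.75 in the authors' deposited table. Ly6g, whose protein was to be absent from the sorted monocytes, reached a log2 fold of 0.95 there (Wald statistic 3.04, adjusted p = 0.0447, DESeq2's Wald test), and this gene was picked after its values were seen. Macrophage markers rose as well, in 10 of 14 cases, while 0 of 11 monocyte markers were called (DESeq2's Wald test), with 2 under 0.05 before adjustment. The calls make 44.4% of the neutrophil and 71.4% of the macrophage list, beside 5.9% of all genes. Summed marker levels per group were not analysed here, and the part of these markers in the S100a8 and S100a9 result was not tested.

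In TAM, the same pair was called with values that contradict each other. S100a9 stood, in the authors' deposited table, at a Wald statistic of 4.16 (adjusted p = 0.000379, DESeq2's Wald test) and at -1.24 for the log2 fold. S100a8 stood at 2.99 (adjusted p = 0.0146, DESeq2's Wald test) and at -0.05 for the same 2 columns there. The p-value belongs to the Wald statistic, whose sign says higher in TAM of irradiated tumours, while the deposited fold is below 0 for both genes, by little for S100a8. The direction in TAM is therefore not given as a rise or a fall. Both calls were lost under robust scaling (statistics 1.53 for S100a9 and 1.10 for S100a8), and that of S100a8 at a threshold of 0.01. Robust scaling left 0 of all genes called in TAM, so it cannot set these calls apart from others. Rows with unlike signs were rare, 16 of the 4448 genes called in TAM (0.36%), and 2 of the 3 S100 genes called were among them.

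The other 14 genes called in TAM with unlike signs all paired a positive Wald statistic with a negative fold. They included 3 of the listed neutrophil markers, the granule genes Ngp (Wald statistic 9.20, log2 fold change -0.59) and Camp (8.66 and -0.77) and the stefin gene Stfa2l1 (2.55 and -1.01), in the authors' deposited table. Ceacam10, Olfm4, Cstdc5, Mrgpra2b, Stfa2, Il1f9, Steap4 and Asprv1 were further ones, as were 3 immunoglobulin genes, Igkv12-41, Ighg1 and Ighv5-16. Of the listed neutrophil markers not called in TAM, Ltf (2.35 and -0.89), Ly6g (2.41 and -0.37) and Stfa3 (0.15 and -0.13) had unlike signs too. Il1r2 (1.57 and 0.51) did not. In inflammatory monocytes 3 called genes had unlike signs (0.35% of those called) and in granulocytes none, and no S100 gene was among those. Over all 24 pairs of values of the 8 genes, signs were unlike in 3, the third being S100a8 in granulocytes, which was not called (Wald statistic -0.07, log2 fold change 0.13 in the authors' deposited table).

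**Figure D2:**
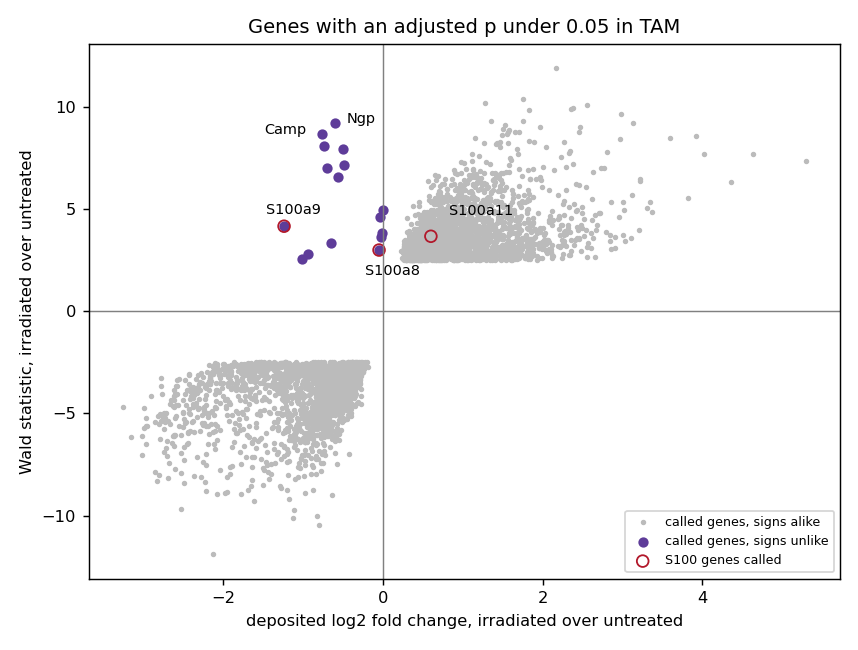
Deposited log2 fold change (x axis) against Wald statistic (y axis), irradiated over untreated, for the 4448 genes called in TAM; violet points mark the 16 genes whose signs are unlike and red rings the S100 genes called. All 16 lie in the upper left, S100a9 at -1.24 and 4.16, while S100a11 lies within the cloud of genes with like signs.

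Neutrophil and monocyte markers also moved in TAM. Of the 18 neutrophil markers, 14 were called with a positive Wald statistic, 3 of them with a negative fold, and none with a negative statistic. The authors' deposited table lists a log2 fold of 1.36 for Csf3r, the G-CSF receptor gene, and 1.69 for Mxd1. Of 11 monocyte markers, 6 rose and none fell (DESeq2's Wald test). The calls make 77.8% of the neutrophil and 54.5% of the monocyte list, beside 26.4% of all genes (13.9% with a positive statistic). Log2 folds were 3.22 for Hp, which encodes haptoglobin, and 1.96 for Ly6c2 in the authors' deposited table. For Ly6g that table holds 2.41 as Wald statistic and -0.37 as log2 fold (adjusted p = 0.0583, DESeq2's Wald test). Their part in the values of S100a8 and S100a9 was not tested.

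S100a11 rose in TAM, with both values of the same sign. The authors' deposited table gives it a log2 fold change of 0.60 and a Wald statistic of 3.66 (adjusted p = 0.00204, DESeq2's Wald test). In inflammatory monocytes its log2 fold change was -0.11 (adjusted p = 0.794) and in granulocytes -0.27 (adjusted p = 0.312, DESeq2's Wald test), in the authors' deposited table, neither past the threshold. The call was lost under robust scaling, which left a statistic of 1.35 and 0 of all genes called in TAM. The remaining 5 genes were not called in TAM, and their Wald statistics lay between -0.50 for S100a6 and 1.12 for S100a10. Over the 8 genes the median Wald statistic in TAM was 1.00, beside 0.14 over all genes tested. With each statistic given the sign of its deposited fold, these medians were 0.30 and 0.10.

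Granulocytes showed a different member and none of the calprotectin pair. S100a13 rose, with a log2 fold change of 0.37 and a Wald statistic of 2.97 in the authors' deposited table (adjusted p = 0.0237, DESeq2's Wald test). S100a1 had 0.43 and 2.40 (adjusted p = 0.0785) and S100a10 0.47 and 2.38 (adjusted p = 0.0802, DESeq2's Wald test) there, both short of the threshold and past it at 0.1. S100a13 and S100a1 start beside each other on opposite strands, and their annotated spans share 98 bases, so with a library kit that keeps no strand some reads may be assigned to either. S100a8 and S100a9, the most abundant per length of the 8 genes, had Wald statistics of -0.07 and -0.22 in granulocytes (adjusted p = 0.973 and 0.919, DESeq2's Wald test). Of the 18 neutrophil markers, 2 were called there (11.1%, beside 17.2% of all genes). They were Mmp8, with a log2 fold change of 2.05, and Stfa3, with 2.58, in the authors' deposited table. Of the 18, 13 had a positive Wald statistic in granulocytes. Among the rest, Hdc had -2.47 and Mxd1 -1.99, neither of them called. Monocyte markers rose in 5 of 11 cases (45.5%) and macrophage markers in 6 of 14 (42.9%) in granulocytes, beside 17.2% of all genes called. The part of these markers in the S100a13 result was not tested. The S100a13 call was lost at a threshold of 0.01 and under robust scaling (statistic 1.42). Robust scaling left 0 of all genes called in granulocytes, so it cannot set this call apart from others.

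S100a4 and S100a6, which lie close together on the chromosome, were called in no subset. S100a4 had log2 folds of 0.23 (TAM), -0.52 (inflammatory monocytes) and 0.29 (granulocytes) in the authors' deposited tables, with the smallest adjusted p, 0.281, in inflammatory monocytes (DESeq2's Wald test). S100a6 had negative values in every subset, -0.14 (TAM), -0.26 (inflammatory monocytes) and -0.13 (granulocytes), in those tables, with adjusted p-values of 0.768, 0.602 and 0.781 (DESeq2's Wald test). S100a10 differed in sign between subsets without a call, at 0.20, -0.13 and 0.47 in the same order. A p-value short of the threshold does not show that a gene was unaffected, and the deposited folds come without an interval.

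With direction taken from the Wald statistic, none of the 8 genes was called in opposite directions in any pair of subsets. This was tested in 24 cases by taking the higher p of a pair of subsets whose Wald signs were unlike, with Benjamini-Hochberg adjustment over all genes tested in both, which gave 0 calls and 0 cases under 0.05 before adjustment. The closest case was S100a11, positive in TAM and negative in granulocytes (p = 0.127 in the authors' Wald test in DESeq2, adjusted p = 1). With direction taken from the deposited fold, an alternative chosen after seeing the data, S100a8 and S100a9 were each past the threshold in TAM with a negative fold and in inflammatory monocytes with a positive one. The paired test then gave p = 3.25e-05 for S100a9 (adjusted p = 0.107) and p = 0.0028 for S100a8 (adjusted p = 1), and again 0 calls. Both unadjusted p-values come from the authors' Wald test in DESeq2, and the adjustment is the Benjamini-Hochberg one above. Whether that pair moved in opposite directions in TAM and in inflammatory monocytes is therefore not settled. Whether an effect was larger in one subset than in another could not be tested without standard errors, so a call in one subset and none in another does not show a difference. The median Wald statistic of the 8 genes was -0.48 in inflammatory monocytes and 0.45 in granulocytes, beside 0.11 and -0.14 over all genes tested.

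Of the other S100 genes, S100a16 was the one called. It fell in TAM, with a log2 fold change of -1.25 and a Wald statistic of -2.60 in the authors' deposited table (adjusted p = 0.0378, DESeq2's Wald test), at a mean count of 70.8 over all libraries. Its log2 fold change was -0.61 in inflammatory monocytes (adjusted p = 0.523, DESeq2's Wald test), and in granulocytes its Wald statistic was -1.94 (adjusted p = 0.173), in the authors' deposited tables. S100a7a, S100a3, S100b and S100a2, which was added after the tables were seen, had an adjusted p in TAM and were not called, at mean counts of 6.54 or less. S100a5, S100a14, S100g and S100z had means of 1.74 or less and no adjusted p in any subset.

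Genes were also set in their order on the chromosome. On mouse chromosome 3, RefSeq's annotation of GRCm38.p6 places 15 S100a genes in order from S100a1 to S100a10, with 56 coding genes between S100a9 and S100a11, Lor and Sprr genes of the skin barrier among them. S100a8 and S100a9 are direct neighbours and were called together. S100a7a, the gene before S100a8, had Wald statistics of -0.61 in TAM and 0.87 in inflammatory monocytes, and Pglyrp4, the gene after S100a9, had 0.00 in both, in the authors' deposited tables. Both neighbours were low, with mean counts of 6.54 and 40.5 over all libraries, beside 36133 for S100a8 and 40979 for S100a9. Their values therefore say little about where the change ends. S100a11 and S100a10 are neighbours too, and in TAM S100a11 was called and S100a10 was not, a difference that was not tested.

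**Figure D3:**
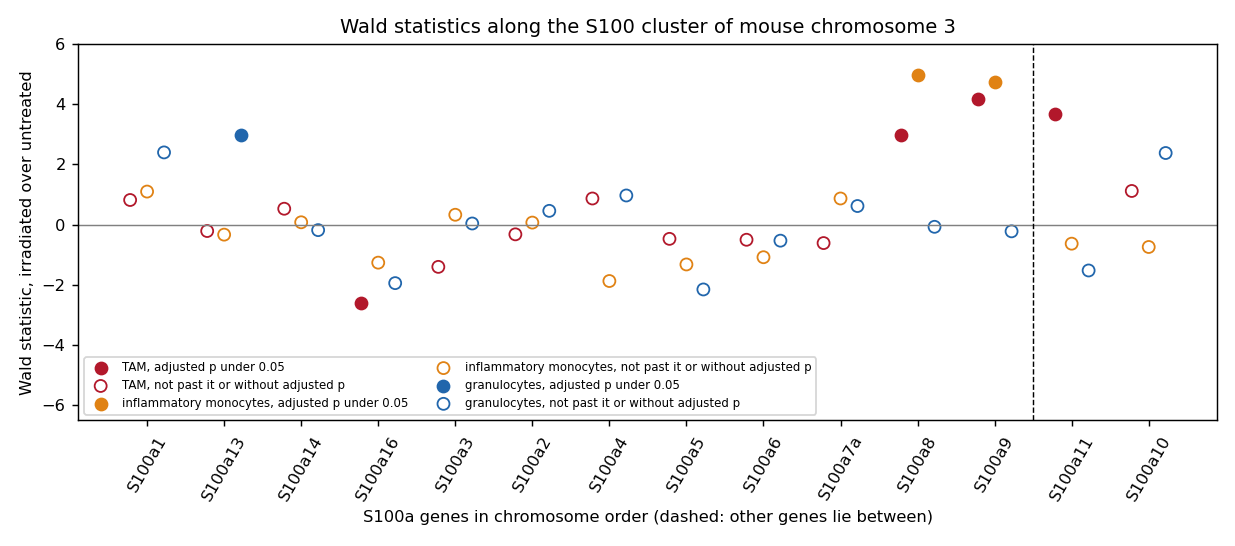
Wald statistic (y axis), irradiated over untreated, of the 14 S100a genes with a value, in chromosome order (x axis, ranks and not distances), in 3 sorted subsets; filled points have an adjusted p under 0.05. The filled points of TAM and inflammatory monocytes above 0 sit at the neighbours S100a8 and S100a9, with S100a11 in TAM and S100a13 in granulocytes apart from them, and S100a16 in TAM is the filled point below 0 (-2.60).

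Genes known to regulate S100a8 and S100a9 were mostly higher in TAM. Of 12 listed regulators, 9 rose and none fell in TAM, 1 rose in inflammatory monocytes, and 2 rose and 3 fell in granulocytes (DESeq2's Wald test), beside 26.4%, 5.9% and 17.2% of all genes called. In TAM the authors' deposited table lists log2 folds of 1.36 for Hif1a, the hypoxia-inducible factor, 1.05 for Cebpb, a C/EBP factor of inflammation and granulocyte formation, and 1.82 for Irf7. In inflammatory monocytes, where S100a8 and S100a9 rose, Irf7 was the regulator called (1.40), and Cebpb had -0.17 (adjusted p = 0.646, DESeq2's Wald test) in the authors' deposited table. In granulocytes, where S100a8 and S100a9 were not called, Irf7 rose too, with 1.34 (adjusted p = 0.00309, DESeq2's Wald test), and Cebpa with 0.77. Tgm2 (-0.96), Cebpb (-0.69) and Stat3, a cytokine-activated factor (-0.46), fell there in the authors' deposited table. The list shares Csf3r with the neutrophil markers. It does not separate genes that raise S100a8 and S100a9 from genes that lower them. The part of Irf7 and the other listed regulators in the S100a8 and S100a9 values was not tested.

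Receptors of released S100 proteins were called about as often as all genes in TAM (27.3% beside 26.4%) and in granulocytes (18.2% beside 17.2%). Of 11 listed, 2 rose and 1 fell in TAM, none was called in inflammatory monocytes, and 1 rose and 1 fell in granulocytes (DESeq2's Wald test). Cd14, which encodes the co-receptor of Toll-like receptor 4, had log2 folds of 0.89 (TAM), -0.18 (inflammatory monocytes) and -0.85 (granulocytes) in the authors' deposited tables, with adjusted p-values of 0.000301, 0.721 and 0.003 (DESeq2's Wald test). Ly96, which encodes MD-2, the subunit that binds ligand, rose in TAM (0.57) and in granulocytes (0.54) in those tables. Emilin1, a matrix gene, was the one that fell in TAM (-0.62). In inflammatory monocytes 1 of the 11 had a p under 0.05 before adjustment.

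Partners of S100 proteins inside the cell, or of the plasminogen system that S100A10 serves at the surface, gave 3 that rose and 2 that fell among 14 tested in TAM, 1 that fell in inflammatory monocytes and 2 that fell in granulocytes (DESeq2's Wald test). These are 35.7%, 7.14% and 14.3% of the list, beside 26.4%, 5.9% and 17.2% of all genes. In TAM, Ahnak, which encodes a large scaffold protein bound by S100A10 and annexin A2, had a log2 fold change of 1.07, Il1a, a cytokine without a signal peptide, 1.68, and Plau, which encodes urokinase, -1.17 in the authors' deposited table. Anxa2 fell in inflammatory monocytes, with -0.58 (adjusted p = 0.0165, DESeq2's Wald test), where its partner S100a10 had -0.13 (adjusted p = 0.751), in the authors' deposited table. In granulocytes, Plat, which encodes tissue plasminogen activator, had -1.57 and Fgf1, a growth factor released with S100A13, had -2.13 in the authors' deposited table, while S100a13 rose. Fgf1 was near the floor, at a mean count of 7.86 over all libraries (adjusted p = 0.0463, DESeq2's Wald test), beside 1161 for S100a13.

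**Figure D4:**
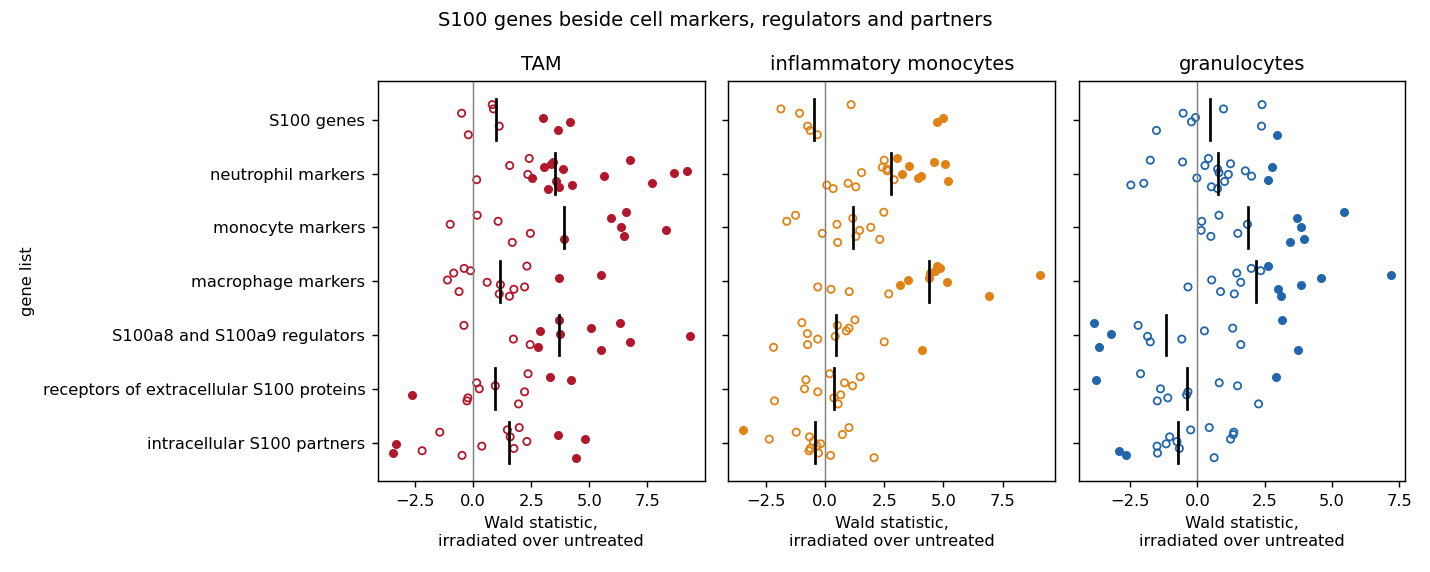
Wald statistics (x axis), irradiated over untreated, of the 8 S100 genes and of 6 gene lists (rows) in 3 sorted subsets (panels); filled points have an adjusted p under 0.05 and black bars are medians. Neutrophil markers have medians of 3.52 (TAM), 2.77 (inflammatory monocytes) and 0.75 (granulocytes), and the 8 S100 genes spread from near or below 0 to the level of those markers.

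The genes most like each S100 gene over the 3 comparisons were found by the Euclidean distance of the 3 Wald statistics among 10204 genes whose mean count reached 50, leaving out Gm and Rik symbols. Nearest to S100a8 were Slco4c1 (distance 0.69), Creb5 (0.70) and Cxcr2 (0.75), and nearest to S100a9 were Oplah (0.67), Cxcr2 (0.78) and Slco4c1 (0.79). S100a9 was the gene ranked 11 by nearness to S100a8, at 1.20, the shortest distance among the 28 pairs of the 8 genes. The next pair, S100a10 and S100a13, stood at 1.52, and the farthest, S100a4 and S100a9, at 7.49. With the sign of the deposited fold, S100a8 and S100a9 were still the closest pair (1.22), but the farthest was S100a9 and S100a11 (9.58), and the gene nearest to S100a8 was Asprv1 (0.73) and that nearest to S100a9 was S100a8. Nearest to S100a11 were Tcf25 (0.30), Aqp9, a water and glycerol channel gene (0.32), and Bnip3l, a mitophagy receptor gene (0.33). Nearest to S100a13 were Crcp (0.37), Dis3l2 and Zfp668 (0.39 each). These distances rest on 3 statistics a gene and describe likeness only.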

How the data were processed

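The authors deposited 3 tables, one per sorted subset, for which the submitters' processing notes name STAR 2.7.6a, fastp 0.20.1, R 4.0.2 and DESeq2 1.28.1, with the build mm39. The counting tool is not given in the sources used here. Per the labels' protocols, cDNA was made into Nextera XT libraries, a kind that keeps no strand. The deposited mean normalised count is a signal averaged over libraries, the same in all tables. How the authors made the deposited log2 fold change is not given in the sources used here. The deposited Wald statistic is a score whose two-sided normal p equals the deposited p-value to within 0.00211 of log10 p. The authors gave adjusted p-values from a lowest mean count of 2.5 (TAM), 6.33 (inflammatory monocytes) or 3.96 (granulocytes), and all 8 S100 genes had one in each table.

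Direction was taken from the Wald statistic. No model was refitted. Single libraries were not analysed, so p-values rest on the authors' estimates of spread between libraries. Whether that spread was estimated within a subset or over all libraries, as the mean count was, could not be checked. Libraries of different subsets from one tumour are not independent. The 8 genes, and 15 other gene lists matched by symbol, were chosen with earlier results of these data known. Named were all 8 genes and, for the most part, per list, up to 4 called genes with the smallest p, or the 2 with the highest mean count. Some genes outside that rule were named as well, such as Ly6g and, in granulocytes, Cebpa. Some that met it, such as Anxa6 in TAM, were not. Alternatives were other thresholds, adjustment over every gene, a minimum fold, robust scaling, re-centring, and direction from the fold, which for opposite directions, medians and distances was chosen after seeing the data. Transcript lengths came from GENCODE M21 (GRCm38), promoters and gene order from RefSeq (GRCm38.p6). The calling code was run on simulated tables, which tests the code and not the S100 calls. Figures were drawn with matplotlib 3.10.9, and computations used scipy 1.17.1, numpy 2.4.6 and pandas 2.3.3 in Python 3.11.15.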

Additional observations from a re-analysis of the deposited data

How the results depend on the processing

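Calls of S100a8 and S100a9 in inflammatory monocytes held under every alternative tried except robust scaling. Robust scaling, which divides by an SD of 2.72 (TAM), 1.56 (inflammatory monocytes) or 2.09 (granulocytes), left 0 of the 8 genes called in any subset, and 0, 25 and 0 of all genes. In TAM and granulocytes it therefore cannot tell the S100 calls from those of other genes. Taking direction from the log2 fold change put S100a8 (-0.05) and S100a9 (-1.24) on the other side of 0 in TAM, so 1 of the 3 genes called there, S100a11, counted as higher. Requiring a log2 fold of 1 or more in size left 1 gene called in TAM (S100a9) and 0 in granulocytes. In granulocytes, a threshold of 0.01 left 0 genes and one of 0.1 gave 3 (S100a1, S100a10 and S100a13, all higher). At 0.01, S100a8 was no longer called in TAM. Adjustment over every gene and re-centring changed no call of the 8 genes. Opposite directions between subsets gave 0 calls under thresholds of 0.01 and 0.1, a mean count minimum of 50 and robust scaling. Direction from the fold, chosen after seeing the data, gave 0 calls too. With it, S100a9 in TAM and inflammatory monocytes came closest (adjusted p = 0.107). That value is the Benjamini-Hochberg adjustment of the higher of 2 p-values from the authors' Wald test in DESeq2. Of 168 values of single genes under alternatives, 153 kept their side of the threshold and, where called, their direction. Of the rest, 2 called ones turned, 11 lost and 2 gained a call. The 153 include S100a8 in granulocytes, not called, whose Wald statistic of -0.07 became 0.01 on re-centring and whose fold was 0.13. No paired analysis was possible because irradiated and untreated tumours carry different numbers, and leaving out libraries was not run because the tables hold comparisons only.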

Other observations

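Annexins without a listed S100 partner and calmodulins are other calcium-binding families. Called were 40% of the annexins in TAM and in granulocytes and 25% of the calmodulins in both, beside 26.4% of all genes in TAM and 17.2% in granulocytes, over lists of 5 and 4 genes. Of 5 other annexin genes tested, Anxa4 and Anxa7 rose in TAM and in granulocytes (DESeq2's Wald test), with log2 fold changes of 0.44 and 0.43 in TAM and of 0.67 and 0.33 in granulocytes in the authors' deposited tables, and none was called in inflammatory monocytes (0 of 5, with Anxa4 the one under 0.05 before adjustment, p = 0.00829 in the authors' Wald test in DESeq2). Among 4 calmodulin genes tested, Calm3 fell in TAM (-0.53) and Calm2 in granulocytes (-0.28) in the authors' deposited tables. Of 7 fused-type S100 genes, which act in the skin barrier, Tchh alone had an adjusted p and was not called in any subset.

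Markers of cells outside the sorted gates gave further values. Fibroblasts also express S100a4 and S100a6. Fibroblast markers fell in 3 of 10 cases in TAM and 4 of 9 in granulocytes (DESeq2's Wald test), with -1.77 and -1.98 for Col1a1 in the authors' deposited tables. Epithelial and tumour cell markers had a positive Wald statistic in 11 of 11 cases in TAM, 2 of them called (Cdh1 and Phgr1). Dendritic cell markers fell in 4 of 9 cases in TAM, lymphocyte markers in 2 of 11, and endothelial markers rose in 1 of 6. In TAM these calls make 30% of the fibroblast, 18.2% of the epithelial, 44.4% of the dendritic, 18.2% of the lymphocyte and 16.7% of the endothelial list, beside 26.4% of all genes, and in granulocytes 44.4% of the fibroblast list, beside 17.2%. In TAM, 4 of 11 lymphocyte markers had a positive Wald statistic, up to 2.41 for Ms4a1, which was not called. In inflammatory monocytes, Cd79a was the lymphocyte marker called, with a log2 fold change of 2.17 (adjusted p = 0.0157, DESeq2's Wald test). In granulocytes Trac fell (-1.16), 9.09% of the lymphocyte list. Of 6 endothelial markers there, Vwf rose (0.99) and Plvap fell (-2.14), 33.3% of the list. The part of all these markers in the S100 values was not tested.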
